A study of Mus musculus with 4 samples.

Results

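Neurotransmitter receptor genes were followed in islet-like clusters and in islets of Langerhans on 4 single-colour Agilent mouse arrays. The genes were chosen by their names on the array: AMPA, NMDA, kainate and delta glutamate receptor subunits, metabotropic glutamate receptors, GABA-A and GABA-B receptors, glycine, nicotinic and muscarinic receptors, adrenergic, dopamine and serotonin receptors, and the P2X and P2Y receptors for nucleotides. The names took in 116 of 34821 gene names, read by 167 probes on 203 spots. Grid2ip was among them by its name but encodes a protein that binds a glutamate receptor, so 115 receptor genes are described, 66 for subunits of ion channels and 49 for G protein-coupled receptors.

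Both groups came from the pancreas of male Swiss albino mice aged 10 to 12 weeks, killed in groups of 2 to 4 per preparation, with 2 arrays each. The islet-like clusters were made from cultured fibroblast-like pancreatic cells, passaged and then kept in serum-free medium in low-adherence dishes to day 10, with 0.3 mM taurine from day 3. From day 7 they received GLP-1, an incretin hormone, together with 3 mM taurine and nicotinamide at 100 mM. The islets were flushed from the same kind of collagenase digest, after 48 h in culture per their titles, although their descriptions call them freshly isolated. No allele or transgene is named for either group, and no array of the cultured cells before cluster formation is part of the comparison. The comparison therefore sets the clusters against islets and does not show what the induction medium changed.

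Receptors of this kind are best known from synapses, where ion-channel receptors act within a fast signal and G protein-coupled receptors act through second messengers. Pancreatic endocrine cells carry many of them too: acetylcholine and ATP released near beta cells raise insulin secretion, while noradrenaline restrains it, and GABA and glutamate pass between islet cells. An ion-channel receptor is assembled from several subunits, so the message of 1 subunit does not show that a working receptor is present.

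On the arrays, 59.7% and 62.3% of the non-control spots of the clusters were well above background (the scanner software's flag), against 63.6% and 61.2% in islets, and no spot was saturated. Values of the genes tested correlated at r = 0.985 within the clusters and at r = 0.989 within the islets (Pearson, across genes, which are not independent replicates), and at 0.796 to 0.810 across groups. The markers of cell types differed widely. The summed linear signal of 9 acinar markers, relative to the 75th percentile of each array, was 1.31 and 1.14 in clusters against 3170 and 4720 in islets, and 4 of the 9 were well above background on no cluster array. Of 7 stromal markers 6 were higher in clusters (summed signal 754 and 635, against 24.3 and 33.4 in islets). The 7 beta cell markers summed to 5.51 and 4.42 in clusters and to 126 and 21.6 in islets. Pdx1, Slc2a2, Iapp and G6pc2 were well above background on no cluster array. All 6 endothelial markers were lower in clusters (3.54 and 2.88, against 9.50 and 10.3 in islets), 4 of them well above background on no cluster array. Macrophage markers summed to 53.4 and 45.7 in clusters and to 161 and 189 in islets. These sums differ between the same groups as every receptor difference given below, and their part in those differences was not tested. In such bulk RNA, fewer cells of a type and less RNA per cell cannot be told apart.

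Of the 115 receptor genes, 64 (55.7%) were tested, having a probe above background by that flag on each array of the clusters, of the islets or of both, against 70.6% of all genes. A further 45 (39.1%, against 23.5% of all genes) were well above background on no array, and 6 (Gria1, Grin2d, Glra1, Adra1a, Htr1d and P2ry10) on some array without passing the filter. Among the 64, 21 were higher and 16 lower in clusters and 27 did not pass (limma, Benjamini-Hochberg adjusted over all genes, threshold 0.05). That is 57.8% called, beside 54.9% of the 24595 genes tested. By direction it is 32.8% higher and 25.0% lower, beside 26.6% and 28.2% of all genes, so the receptor genes were called about as often as genes in general. Their median log2 fold change was 0.03, against -0.10 for all genes. Setting dim genes to their bound could not move the receptor median, as each stayed on its side of it. With the arrays scaled on the probes detected on all of them, the receptor split turned to 15 higher and 21 lower. That scaling moved the median of all genes by -0.19, and median scaling moved it by 0.20. Fold changes are relative to such a centre. The arrays of the groups did not overlap for 49 of the 64 genes, beside 79.9% of all genes tested.

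The outcome by family shows where the tested genes lie: all 7 P2X genes were bright enough to test, but only 10 of 19 GABA-A, 9 of 16 nicotinic and 5 of 14 serotonin receptor genes. Among ion-channel subunits 11 were higher and 10 lower of 38 tested, and among G protein-coupled receptors 10 and 6 of 26.

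**Figure D1:**
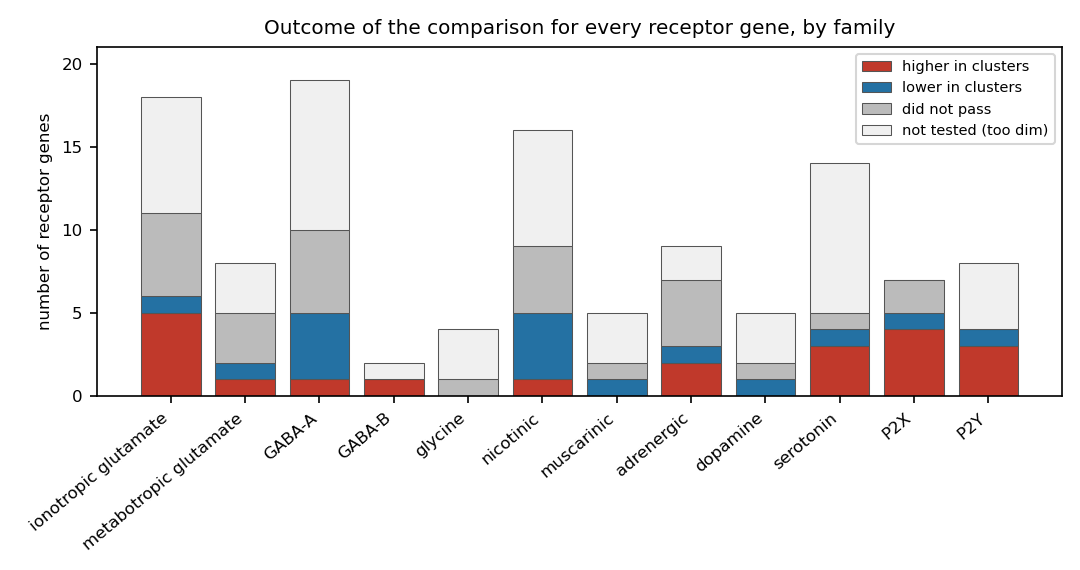
Number of receptor genes (vertical axis) in each receptor family (horizontal axis), stacked by outcome: higher in clusters, lower in clusters, did not pass, and not tested because no probe was bright enough. Ionotropic glutamate, P2X and P2Y genes show more higher than lower calls (5 and 1, 4 and 1, 3 and 1), and GABA-A and nicotinic genes more lower than higher (4 and 1 in each).

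**Figure D2:**
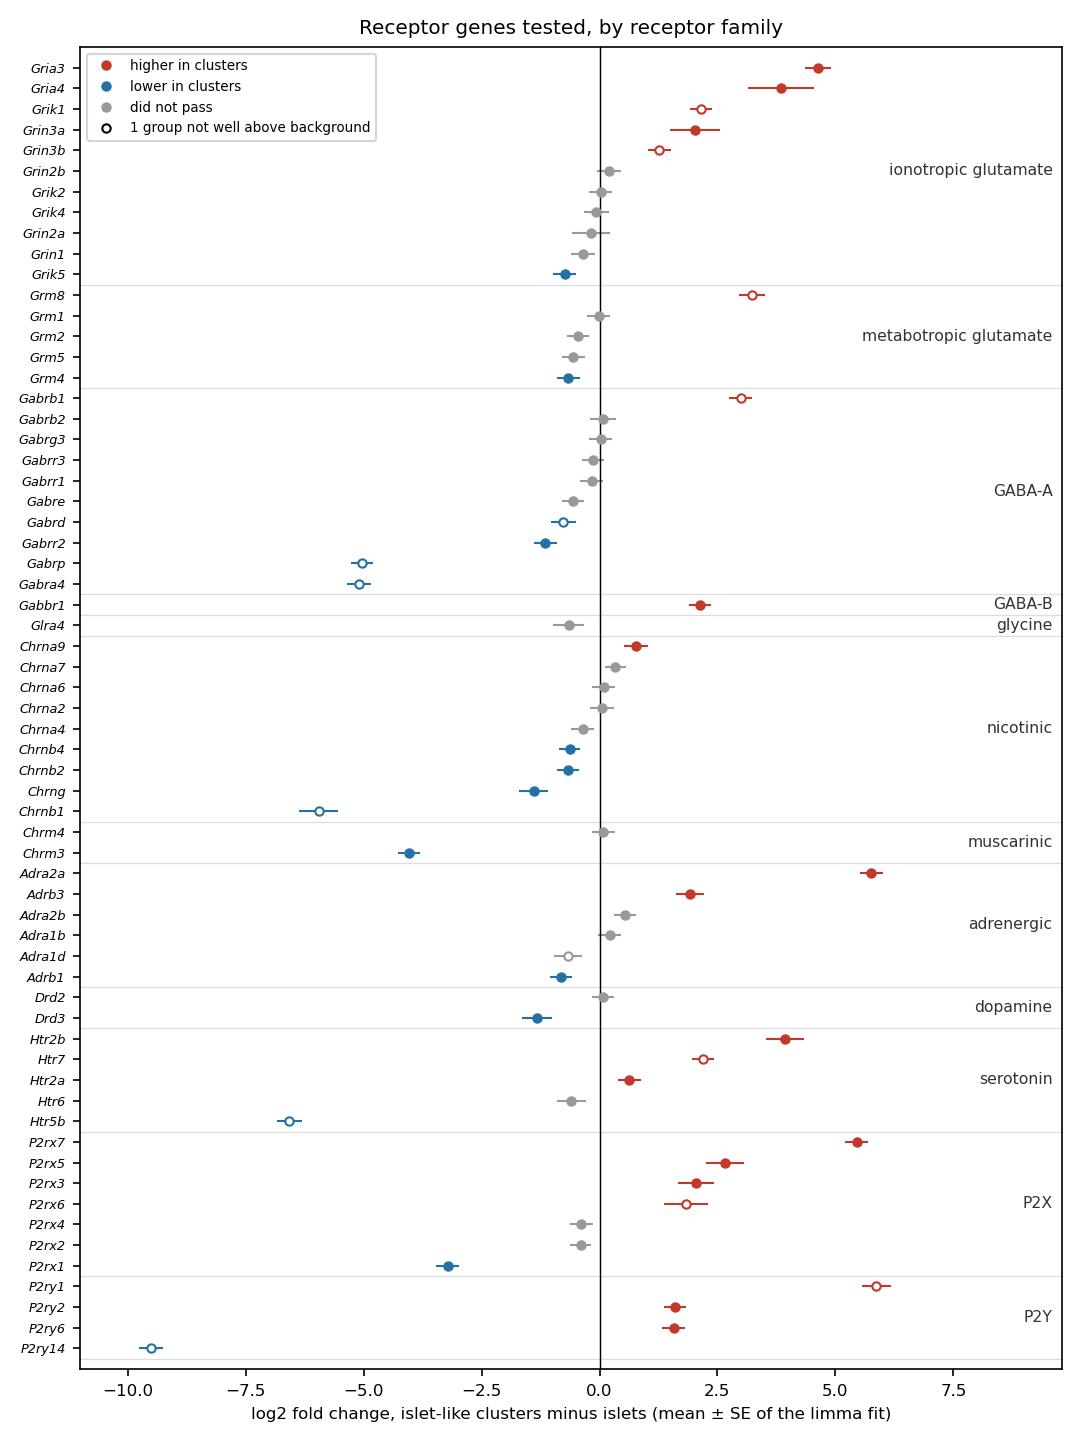
Log2 fold change, islet-like clusters minus islets, with the standard error of the limma fit, for 63 of the 64 receptor genes tested (rows, grouped by family). Filled points are measured in both groups, open points in 1 group only. The called filled points reach from -4.04 for Chrm3 to 5.76 for Adra2a. An open point is the fitted value of a gene that has only a bound, and the bound is not drawn.

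The plot of fold changes by family orders the genes by transmitter, and the account below follows it. Values on single arrays are log2 signals relative to the array's 75th percentile, so 0 is that percentile, and a gene's values are compared between groups but not with those of another gene. A gene for which no probe was well above background in a group has only a bound there, and its difference is written as at least a given fold. The p-value printed with such a fold belongs to the fitted difference, which uses the dim signals as read. It is not a test of the bound. A value of -6.82 in cluster replicate 1 stands for the surrogate that the scanner software gives to spots not above background.

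Fast glutamate receptors were the ion-channel family with most higher calls: 5 of 11 tested were higher in clusters and 1 was lower. Gria3, an AMPA receptor subunit (probe at chrX:39031099-39031158, build mm9), had log2 signals of 1.03 and 0.86 in clusters against -3.37 and -4.01 in islets. Both cluster arrays lay far above both islet arrays, a log2 fold change of 4.63 ± 0.27 (SE), 24.8-fold (limma adjusted p = 7.16e-07). Its second probe gave 1.75, and normexp background correction gave 2.89.

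Gria4, another AMPA subunit, had log2 signals of -2.14 and -1.36 in clusters against -6.97 and -4.23 in islets, and islet replicate 1 was not well above background. Its log2 fold change of 3.85 ± 0.70 (limma adjusted p = 0.00138) was 2.48 without islet replicate 1 and 5.21 without islet replicate 2, and 1.04 with normexp. The call was lost without either cluster array and, at 3.66, when scaled on probes detected on all arrays. The other AMPA subunits were dim: Gria2, which makes the channel impermeable to calcium in its edited form, was well above background on no array and Gria1 on 1 cluster array.

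Kainate receptor genes went different ways. Grik1 had log2 signals of -3.25 and -3.39 in clusters, while its islet signals of -5.32 and -5.62 were not well above background, so it was at least 3.13-fold higher in clusters (limma adjusted p = 5.43e-05). Its other probe gave a log2 fold change of 4.99. Grik5, an auxiliary kainate subunit that forms channels only with other kainate subunits, had log2 signals of -0.35 and -0.70 in clusters against 0.24 and 0.18 in islets. That small gap was called lower (log2 fold change -0.74 ± 0.24, limma adjusted p = 0.0274) and was lost without cluster replicate 2, without islet replicate 1, without islet replicate 2, with the replicate number as a block and with no filter on dim probes. Grik2 lay at log2 signals of -3.93 and -4.08 in clusters and -3.89 and -4.17 in islets. Those arrays overlap (log2 fold change 0.02 ± 0.24, limma adjusted p = 0.939), but a second Grik2 probe gave 1.71, and the mean of the probes passed at 0.87.

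NMDA receptors need the subunit encoded by Grin1. Grin1 had log2 signals of -3.33 and -3.55 in clusters against -3.29 and -2.88 in islets, and did not pass (log2 fold change -0.35 ± 0.25, limma adjusted p = 0.257). Grin2a and Grin2b, which bind glutamate in the same receptor, did not pass either, at log2 fold changes of -0.18 and 0.20. Grin3a and Grin3b, whose proteins bind glycine and lower the calcium permeability of the channel, were both called higher. Grin3a had log2 signals of -3.48 and -2.91 in clusters against -6.19 and -4.25 in islets, with islet replicate 1 not well above background. The groups did not overlap (log2 fold change 2.02 ± 0.52, limma adjusted p = 0.00934), but the value was 1.06 and no longer called without islet replicate 1, was 2.99 without islet replicate 2, was not called without either cluster array, and was 0.30 with normexp. In all the call was lost in 10 of 16 alternatives. Grin3b was at least 2.13-fold higher (limma adjusted p = 0.00209), a call lost with normexp (0.08) and without islet replicate 1.

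Metabotropic glutamate receptors act through G proteins. Grm8, which lowers cyclic AMP through Gi, had log2 signals of -2.51 and -2.58 in clusters, and its islet signals of -5.43 and -6.12 were not well above background. It was at least 5.39-fold higher in clusters (limma adjusted p = 9.39e-06), while normexp gave a log2 fold change of 0.63. Grm4, a receptor of the same Gi-coupled group, had log2 signals of -3.34 and -3.43 in clusters against -2.94 and -2.51 in islets. It was narrowly called lower (log2 fold change -0.66 ± 0.25, limma adjusted p = 0.0475), and leaving out any single array ended the call, which was lost in 10 of 17 alternatives. Grm5, which couples to Gq and calcium release, had log2 signals of -2.72 and -2.70 in clusters against -2.01 and -2.30 in islets and did not pass (log2 fold change -0.55 ± 0.24, limma adjusted p = 0.0737). It passed as lower under 5 of the 17 alternative settings, for example at -0.84 with the mean of its probes.

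GABA-A receptors are chloride channels, and 4 of the 10 tested genes were lower and 1 higher in clusters. Gabra4, an alpha subunit found mostly outside synapses in brain (probe at chr5:71961055-71961114, build mm9), had log2 signals of -6.82 and -7.24 in clusters, not well above background, against -1.91 and -1.96 in islets. This is at least 7.53-fold lower in clusters (limma adjusted p = 1.81e-07). Gabrp, the pi subunit known from tissues outside the nervous system (chr11:33450919-33450978), had log2 signals of -5.49 and -5.20 in clusters, not well above background, against -0.23 and -0.40 in islets. That is at least 23.1-fold lower in clusters (limma adjusted p = 1.64e-07). With normexp the log2 fold changes of these genes were -1.47 for Gabra4 and -2.35 for Gabrp.

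Gabrr2, a rho subunit, was bright in both groups, with log2 signals of 2.13 and 1.78 in clusters against 3.03 and 3.19 in islets. The groups did not overlap (log2 fold change -1.15 ± 0.24, limma adjusted p = 0.00311), but the call was lost without islet replicate 1 or 2. Gabrb1, a beta subunit, went the other way. Its log2 signals were -3.99 and -3.78 in clusters, and -7.05 and -6.71, not well above background, in islets, at least 2.13-fold higher in clusters (limma adjusted p = 6.47e-06), and with normexp the call was lost at 0.34. Its probe (chr5:72528086-72528145) lies on the same stretch of chromosome 5 as that of Gabra4, and the neighbouring genes Gabra2 and Gabrg1 were well above background on no array. In all, 9 GABA-A genes were well above background on no array.

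GABA-B receptors are pairs of the proteins of Gabbr1 and Gabbr2. Gabbr1 (chr17:37210986-37211045) had log2 signals of 1.34 and 1.16 in clusters against -0.81 and -0.96 in islets, and the groups stood clearly apart. It was 4.40-fold higher in clusters (log2 fold change 2.14 ± 0.23, limma adjusted p = 4.65e-05), with 0.96 and 0.27 from its other probes. Gabbr2 was well above background on no array. The glycine receptor genes gave no call: Glra4 did not pass (log2 fold change -0.65 ± 0.34, limma adjusted p = 0.128), Glra1 was well above background on 1 cluster array only, and Glra2 and Glra3 on none.

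Nicotinic receptors are cation channels opened by acetylcholine. Chrnb1, the beta subunit of the muscle-type receptor, had log2 signals of -6.33 and -4.97 in clusters, not well above background, against 0.55 and 0.05 in islets. That makes it at least 34.9-fold lower in clusters (limma adjusted p = 1.90e-06). Its fitted log2 fold change of -5.95 was -5.27 or -6.63 when cluster replicate 1 or 2 was left out, and -2.73 with normexp. Chrng, the gamma subunit of the fetal muscle receptor, had log2 signals of -3.79 and -4.63 in clusters against -2.76 and -2.87 in islets. Every cluster array lay below both islet arrays (log2 fold change -1.40 ± 0.30, limma adjusted p = 0.00355), and normexp gave -0.50, not called. Chrna1, Chrnd and Chrne, other subunits of muscle-type receptors, were well above background on no array. Of 8 skeletal muscle markers 3 were tested, 1 higher and 2 lower, with a summed signal of 0.33 and 0.30 in clusters and 2.83 and 1.07 in islets, and their part in these differences was not tested.

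Among neuronal-type nicotinic genes the differences were small. Chrnb2, with log2 signals of -4.76 and -4.97 in clusters against -4.09 and -4.28 in islets, and Chrnb4 were called lower, at log2 fold changes of -0.67 and -0.63. Chrna9, with log2 signals of -1.33 and -1.57 in clusters against -2.39 and -2.05 in islets, was called higher at 0.77. The other Chrna9 probe was well above background on no array, so the call rests on a single probe. Leaving out any single array ended these 3 calls, and the replicate number as a block, normexp and testing with no filter on dim probes ended them too. Chrna7, whose channel passes calcium, had log2 signals of -2.60 and -2.65 in clusters against -2.998 and -2.92 in islets and did not pass (log2 fold change 0.33 ± 0.23, limma adjusted p = 0.239). It passed at 0.53 with median scaling and at 0.47 with quantile normalization. These values come from 1 Chrna7 probe. The other, printed on 10 spots, was well above background on no array.

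The muscarinic receptor of the beta cell and the acinar cell was lower in clusters. Chrm3, which couples acetylcholine to Gq and calcium release (chr13:9875880-9875939), had log2 signals of -4.35 and -4.32 in clusters against -0.22 and -0.38 in islets. All 4 arrays were well above background and the replicates lay close together, a log2 fold change of -4.04 ± 0.23, 16.4-fold lower (limma adjusted p = 5.24e-07), or -2.10 with normexp. Chrm4 did not pass (0.08), and Chrm1, Chrm2 and Chrm5 were well above background on no array. All 9 acinar markers tested were lower in clusters as well, and their part in the Chrm3 difference was not tested.

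Adra2a, the alpha-2A adrenergic receptor through which noradrenaline restrains insulin secretion, had the greatest difference of the called receptor genes without a bound. It had log2 signals of 5.65 and 5.42 in clusters against -0.05 and -0.41 in islets (chr19:54123363-54123422). The clusters were 54.2-fold higher (log2 fold change 5.76 ± 0.25, limma adjusted p = 8.53e-08), and over all 17 alternative settings the log2 fold change stayed between 5.44 and 5.96.

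Adrb3 and Adrb1, beta adrenergic receptors that raise cyclic AMP through Gs, differed less. Adrb3, known from fat cells, had log2 signals of -2.30 and -2.57 in clusters against -4.74 and -3.96 in islets. Its groups did not overlap (log2 fold change 1.92 ± 0.30, limma adjusted p = 0.000488), but its second probe gave -0.87, the only receptor gene with probes called in opposite directions, normexp gave 0.55, and the mean of the probes ended the call. Adrb1, known from the heart, had log2 signals of -3.75 and -3.81 in clusters against -3.08 and -2.84 in islets and was called lower (log2 fold change -0.82 ± 0.23, limma adjusted p = 0.0144). Leaving out any single array ended that call, as did normexp and testing with no filter on dim probes.

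Dopamine receptors of the Gi-coupled type were dim in both groups. Drd3 had log2 signals of -3.70 and -4.56 in clusters against -3.03 and -2.59 in islets, and no arrays overlapped (log2 fold change -1.32 ± 0.32, limma adjusted p = 0.00664). The call was lost without cluster replicate 2, at -0.89, and without islet replicate 2, at -1.10, and with the replicate number as a block, and normexp gave -0.55. Drd2, with log2 signals of -3.76 and -4.03 in clusters and -3.90 and -4.05 in islets, overlapped between groups (0.08 ± 0.24, limma adjusted p = 0.794).

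Serotonin receptors showed large differences both ways, 3 higher and 1 lower of 5 tested. Htr2b, a Gq-coupled receptor that rises in mouse beta cells during pregnancy, had log2 signals of 0.37 and 1.34 in clusters against -2.56 and -3.59 in islets. The replicates were about 1 unit apart in each group and the groups about 4 units apart (log2 fold change 3.93 ± 0.40, 15.2-fold, limma adjusted p = 3.09e-05), with 2.57 from normexp. Htr7, which raises cyclic AMP through Gs, had log2 signals of -3.05 and -2.94 in clusters, and -5.19 on both islet arrays, not well above background. It was at least 3.93-fold higher (limma adjusted p = 3.37e-05), a call that normexp ended at 0.37.

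Htr5b, a receptor gene that is intact in rodents and whose function is little known, had log2 signals of -6.82 and -7.25 in clusters, not well above background, against -0.26 and -0.67 in islets (chr1:123406629-123406688). Htr5b was thus at least 20.8-fold lower in clusters (limma adjusted p = 5.99e-08), and -2.51 with normexp. Htr2a was called higher at a log2 fold change of 0.63 (limma adjusted p = 0.0471), with log2 signals of -3.94 and -3.68 in clusters against -4.53 and -4.36 in islets. The call was lost in 12 of 16 alternatives, among them those without any single array, and with normexp the difference was -0.0015. Htr3a and Htr3b, the subunits of the serotonin-gated channel, were well above background on no array.

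P2X receptors are cation channels opened by extracellular ATP. P2rx7, which opens at high ATP and is known for releasing inflammatory cytokines from macrophages (chr5:123134194-123134253), had log2 signals of 2.50 and 2.24 in clusters against -3.20 and -2.96 in islets. It was 43.7-fold higher in clusters (log2 fold change 5.45 ± 0.24, limma adjusted p = 1.04e-07). Its other probes gave 4.55 and 2.27, and normexp gave 4.07. Of 8 macrophage markers 4 were lower in clusters, 1 was higher and 3 did not pass, and their part in the P2rx7 difference was not tested.

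P2rx5 and P2rx3 were also called higher. P2rx5 had log2 signals of -1.66 and -1.77 in clusters against -3.67 and -5.08 in islets, with islet replicate 2 not well above background (log2 fold change 2.66 ± 0.40, limma adjusted p = 0.000413). That value was 3.37 without islet replicate 1, 1.96 without islet replicate 2 and 0.89 with normexp. P2rx3, known from sensory neurons, had log2 signals of -0.98 and 0.34 in clusters against -2.45 and -2.29 in islets, and its cluster arrays lay further apart than its islet arrays. Its log2 fold change of 2.05 ± 0.38 (limma adjusted p = 0.00159) was 2.71 or 1.39 when cluster replicate 1 or 2 was left out, 1.36 with normexp, and not called at 1.86 when scaled on probes detected on all arrays. Its 4 probes ranged from -0.14 to 2.05. P2rx6 was at least 1.85-fold higher (limma adjusted p = 0.00853), a call lost in 11 of 16 alternatives, among them those without either cluster array or islet replicate 2, with normexp and with other scalings. Its fitted log2 fold change of 1.83 was 2.70 without islet replicate 1 and 0.97 without islet replicate 2.

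P2rx1, known from smooth muscle and platelets, was the P2X gene lower in clusters. Its log2 signals were -1.27 and -1.59 in clusters against 1.87 and 1.69 in islets, 9.27-fold lower with no overlap (log2 fold change -3.21 ± 0.24, limma adjusted p = 3.57e-06). P2rx4, expressed in many tissues, had log2 signals of 5.54 and 5.29 in clusters against 5.72 and 5.88 in islets, and did not pass (log2 fold change -0.38 ± 0.24, limma adjusted p = 0.196). A second P2rx4 probe, not well above background in islets, gave 3.91, so the outcome for the gene depends on the probe. The first probe passed as lower at -0.57 when scaled on probes detected on all arrays and at -0.37 with quantile normalization.

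**Figure D3:**
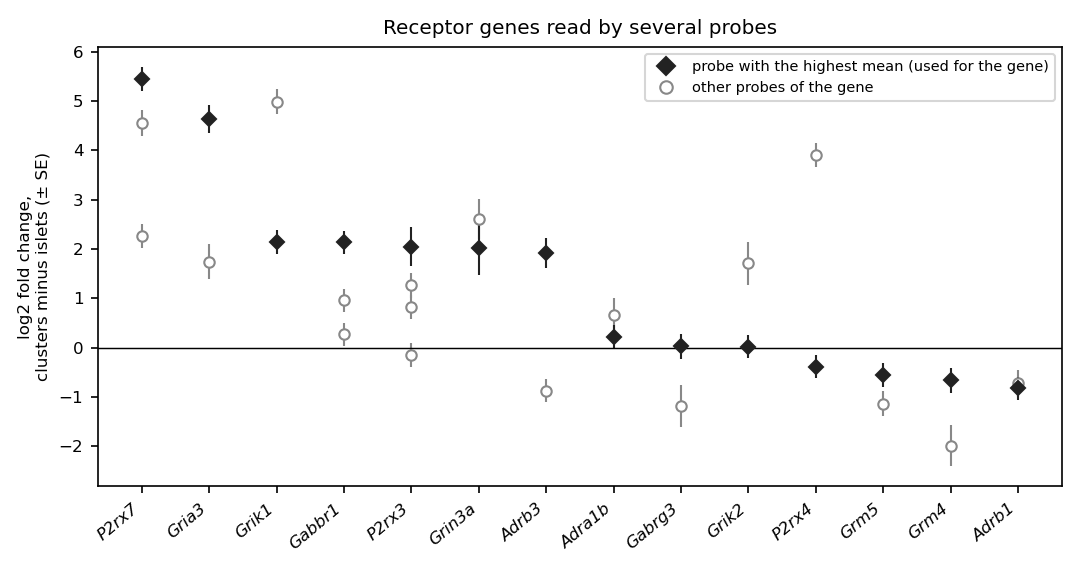
Log2 fold change, clusters minus islets, with its standard error (vertical axis), for each probe that passed the filter. The horizontal axis holds the 14 tested receptor genes with several such probes. Filled diamonds mark the probe used for the gene and open circles the others. The probes of P2rx7 and Gria3 all lie above 0, those of Adrb3 lie on both sides of it, and those of P2rx4 at -0.38 and 3.91.

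The plot of probes shows how far probes of 1 gene can differ: 5 of these genes had a probe past the threshold with an outcome other than that of the gene. For Adrb3 that probe went against the call of the gene, and the others were genes that did not pass. The probe positions are on mm9, and which exon or transcript end each probe reads was not analysed here. Probes too dim for the filter are not drawn. Gria4, Grin1, Grin2a, Grin2b, Chrna7, Chrna9 and Htr7, among others, each had such a probe beside the one used.

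P2Y receptors couple nucleotides to G proteins, and 3 of 4 tested were higher. P2ry1, the Gq-coupled ADP receptor (chr3:60812600-60812659), had log2 signals of 0.70 and 0.59 in clusters, and -4.76 and -5.69, not well above background, in islets. It was at least 44.1-fold higher in clusters (limma adjusted p = 3.62e-07), and 2.84 on the log2 scale with normexp. P2ry2, which answers to ATP and UTP, had log2 signals of 3.26 and 3.07 in clusters against 1.65 and 1.46 in islets. P2ry6, which answers to UDP, had log2 signals of 2.17 and 1.96 in clusters against 0.59 and 0.40 in islets. Both stood apart between groups by a similar amount, 3.05-fold for P2ry2 (log2 fold change 1.61 ± 0.23, limma adjusted p = 0.000327) and 2.97-fold for P2ry6 (1.57 ± 0.23, limma adjusted p = 0.000389).

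P2ry14, the Gi-coupled receptor for UDP-glucose (chr3:58918548-58918607), had the highest bound of the 13 called receptor genes that have only a bound. Its log2 signals were -6.82 and -7.29 in clusters, not well above background, against 2.53 and 2.37 in islets. Cluster signal was at least 157-fold lower (limma adjusted p = 7.95e-09), with a log2 fold change of -5.13 from normexp. P2ry12 and P2ry13, ADP receptors whose genes lie beside P2ry14 on chromosome 3, were well above background on no array, nor was P2ry4.

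**Figure D4:**
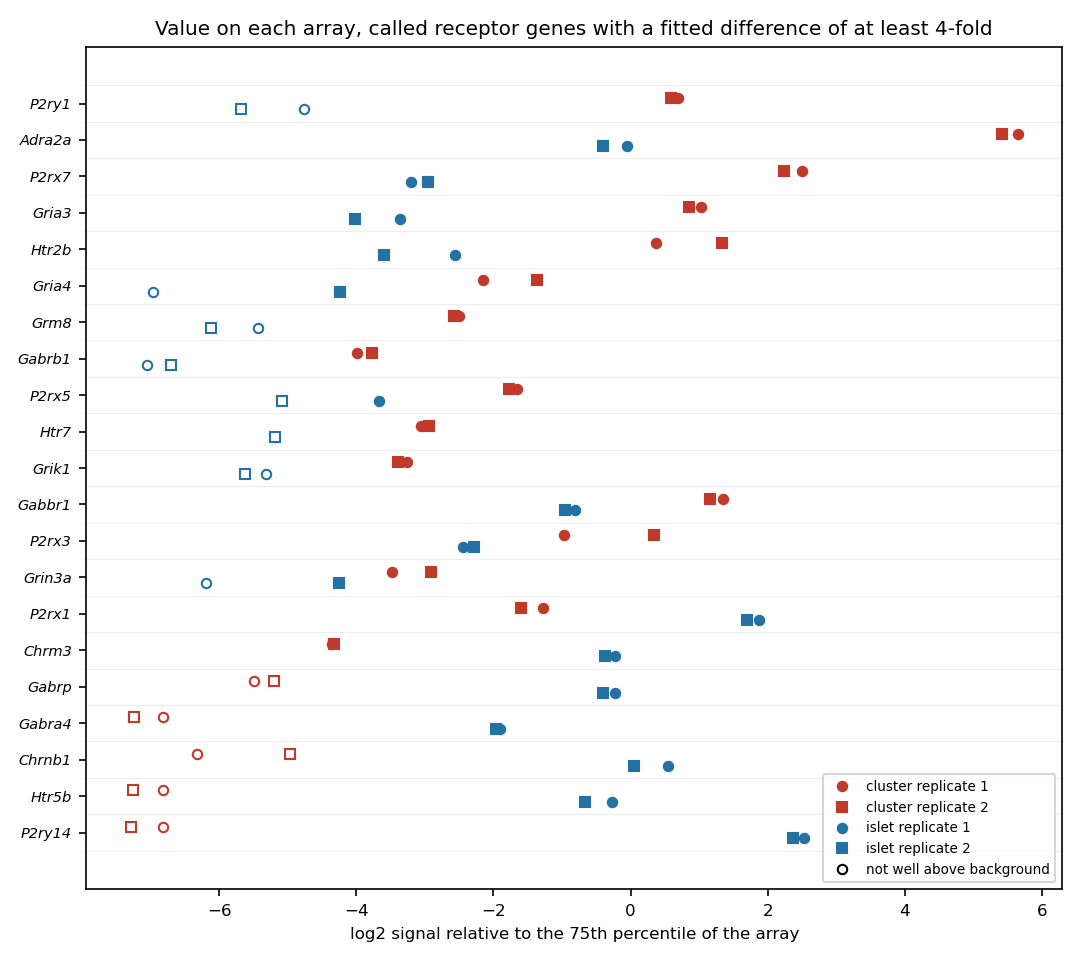
Log2 signal on each array relative to the array's 75th percentile (horizontal axis) for the 21 called receptor genes with a fitted difference of at least 4-fold (rows, in order of the fitted difference, 3 of them with a bound under 4-fold). Red marks are cluster arrays and blue marks islet arrays, circles replicate 1 and squares replicate 2, and open marks were not well above background. Adra2a, P2rx7, Gria3 and Gabbr1 are filled in both groups, while P2ry14, Htr5b, Chrnb1, Gabra4 and Gabrp are open in clusters.

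The plot of values by array holds 32.8% of the receptor genes tested, beside 19.7% of all genes tested that were called with a fitted difference of that size. Fitted differences of genes with only a bound are counted in both shares, and the gap was not tested. In these genes, chosen for their difference, the widest gaps within a group were those of the islet arrays for Gria4 and Grin3a.

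Upstream sequence is shown for 4 of the genes with large differences, Adra2a and Htr2b higher and Chrnb1 and Gabrp lower, to give their sequence context. These are the 250 bases before the annotated start in RefSeq (GRCm38.p6), written in the direction of the gene. Capitals mark matches to the motifs searched on either strand. The motif of the AP-1 factors was spelled TGANTCA. The GC box, which Sp1-like factors bind, was spelled GGGCGG. The TATA box of core promoters was spelled TATAAA. The E-box of helix-loop-helix factors was spelled CACGTG. The cyclic AMP element CRE was spelled TGACGTCA, and none of these motifs holds another.
Adra2a, chr19:54045009-54045258, plus strand: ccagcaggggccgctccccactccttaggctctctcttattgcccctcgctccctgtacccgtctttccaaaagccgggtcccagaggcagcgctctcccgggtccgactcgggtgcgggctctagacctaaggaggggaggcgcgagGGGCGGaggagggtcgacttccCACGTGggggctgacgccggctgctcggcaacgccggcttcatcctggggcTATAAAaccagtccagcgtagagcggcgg
Htr2b, chr1:86111981-86112230, minus strand: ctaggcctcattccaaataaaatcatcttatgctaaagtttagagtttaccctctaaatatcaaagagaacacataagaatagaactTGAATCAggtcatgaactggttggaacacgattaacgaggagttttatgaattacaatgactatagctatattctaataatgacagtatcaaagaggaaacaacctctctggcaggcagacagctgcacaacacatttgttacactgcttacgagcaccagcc
Chrnb1, chr11:69795938-69796187, minus strand: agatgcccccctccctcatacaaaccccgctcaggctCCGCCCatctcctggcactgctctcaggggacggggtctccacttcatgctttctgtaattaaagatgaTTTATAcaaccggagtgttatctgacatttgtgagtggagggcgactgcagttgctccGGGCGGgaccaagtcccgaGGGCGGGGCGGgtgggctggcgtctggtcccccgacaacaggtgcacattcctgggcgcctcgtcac
Gabrp, chr11:33578958-33579207, minus strand: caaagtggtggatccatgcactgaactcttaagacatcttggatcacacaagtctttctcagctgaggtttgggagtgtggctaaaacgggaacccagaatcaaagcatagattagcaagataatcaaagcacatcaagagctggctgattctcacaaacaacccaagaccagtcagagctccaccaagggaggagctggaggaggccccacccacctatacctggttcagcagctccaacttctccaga
The Adra2a sequence, 67.6% G and C, holds a GC box, a TATA box and an E-box. The Htr2b sequence, 37.6% G and C, holds an AP-1 match, and the Gabrp sequence holds none of the motifs. Of the 115 receptor genes 82 matched this RefSeq table. For a gene with several annotated starts only a single start was counted. A GC box was found for 8 of 14 higher genes (57.1%), 4 of 13 lower genes (30.8%) and 12 of 18 genes that did not pass (66.7%), beside 32.9% of all 27025 genes with a sequence. An AP-1 match was found for 4 of 14 higher genes (28.6%) and 1 of 13 lower genes (7.69%), beside 6.87% of all. The starts of the higher genes Grm8 and P2rx7 and of the lower gene P2ry14 differed in holding that match, so these counts depend on the start taken. A CRE match was found in none of the receptor genes. A match describes the letters only.

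Genes for the supply and clearance of the transmitters, and for anchoring and signalling of the receptors, were read from 9 lists. The share of tested genes that was called ran from 59.1% for desensitisation to 94.7% for extracellular nucleotides, beside 54.9% of all genes tested. The other lists lay at 67.7% for anchoring proteins, 70.0% for monoamines, 70.6% for G proteins, 76.9% for glutamate, 80.0% for acetylcholine and 87.5% for GABA, with 3 of 5 for glycine. Several lists hold few genes, and no difference from that background was tested. In these lists 6 genes had probes called in both directions. Of 8 tested genes for GABA, 5 were higher and 2 lower in clusters. Gad1, which makes GABA, had log2 signals of -0.46 and -0.51 in clusters, and -5.62 and -6.73, not well above background, in islets, at least 22.4-fold higher in clusters (limma adjusted p = 8.42e-07). The GABA transporter Slc6a12 was higher (log2 fold change 3.93), and the transporter Slc6a13 was at least 4.60-fold lower. Of 13 glutamate genes 6 were higher and 4 lower. The uptake transporters Slc1a6 (6.49) and Slc1a3 (5.17) and the vesicular transporter Slc17a6 (3.01) led the higher genes, and the glutaminase Gls2 (-4.34) and the uptake transporter Slc1a2 (-2.31) the lower ones, all as log2 fold changes.

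Of 10 tested monoamine genes 3 were higher and 4 lower. Slc6a2, which takes up noradrenaline, had log2 signals of 1.37 and 1.05 in clusters, and -7.14 and -6.75, not well above background, in islets. It was at least 72.5-fold higher (limma adjusted p = 1.60e-08). Slc6a4, which takes up serotonin, was at least 89.0-fold lower (limma adjusted p = 1.09e-06), with log2 signals of -5.35 and -7.16 in clusters, not well above background, against 1.90 and 1.36 in islets. Ddc, the decarboxylase that makes dopamine and serotonin, was at least 41.6-fold lower. The monoamine oxidases Maoa (1.87) and Maob (1.76), which break monoamines down, were higher on the log2 scale, and the vesicular transporter Slc18a1 was at least 2.96-fold lower. Th (-1.06), which makes the precursor of dopamine, was lower. Of 5 glycine genes Slc6a5, a glycine transporter, was at least 57.9-fold higher and Gldc, of glycine breakdown, higher, with Shmt1 lower. Of 5 acetylcholine genes, Chat, which makes acetylcholine, was at least 2.31-fold higher, the choline carrier Slc44a2 higher (1.46), and Bche (-2.13) and Slc44a1 (-0.70) lower.

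Of 19 tested genes that handle extracellular nucleotides 10 were higher and 8 lower. The adenosine receptor Adora2b (5.88), the ectonucleotidase Nt5e, which makes adenosine (4.88), and the phosphatase Alpl (4.70) were the genes with the highest log2 fold changes. Entpd3 and Entpd1, which break down ATP, were at least 83.1-fold and 13.5-fold lower, and the adenosine receptor Adora1 at least 180-fold lower.

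Of 31 tested anchoring and auxiliary proteins 12 were higher and 9 lower. Cacng7 and Cnih2, auxiliary subunits of AMPA receptors, were higher at log2 fold changes of 4.93 and 4.66, as was the postsynaptic scaffold Dlg4 (4.85). A second Cacng7 probe was called lower at -0.89. The scaffold Homer2, which binds group I metabotropic glutamate receptors, was at least 218-fold lower, Dok7, which acts in clustering of the muscle acetylcholine receptor, was lower at -4.93, and Pick1 at -2.96. Of 34 G protein and second messenger genes 17 were higher and 7 lower, among them the adenylyl cyclase Adcy2 (at least 46.7-fold higher), Adcy7 (5.84), the Go subunit Gnao1 (5.00) and the Gq-family subunit Gna14 (at least 35.7-fold lower). Of 22 desensitisation genes 8 were higher and 5 lower, with Rgs16 (3.89), Rgs10 (3.84) and Grk5 (3.46) higher and the kinase Adrbk2 at least 31.7-fold lower. Both arrestins, Arrb1 (-2.21) and Arrb2 (-2.31), were lower.

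**Figure D5:**
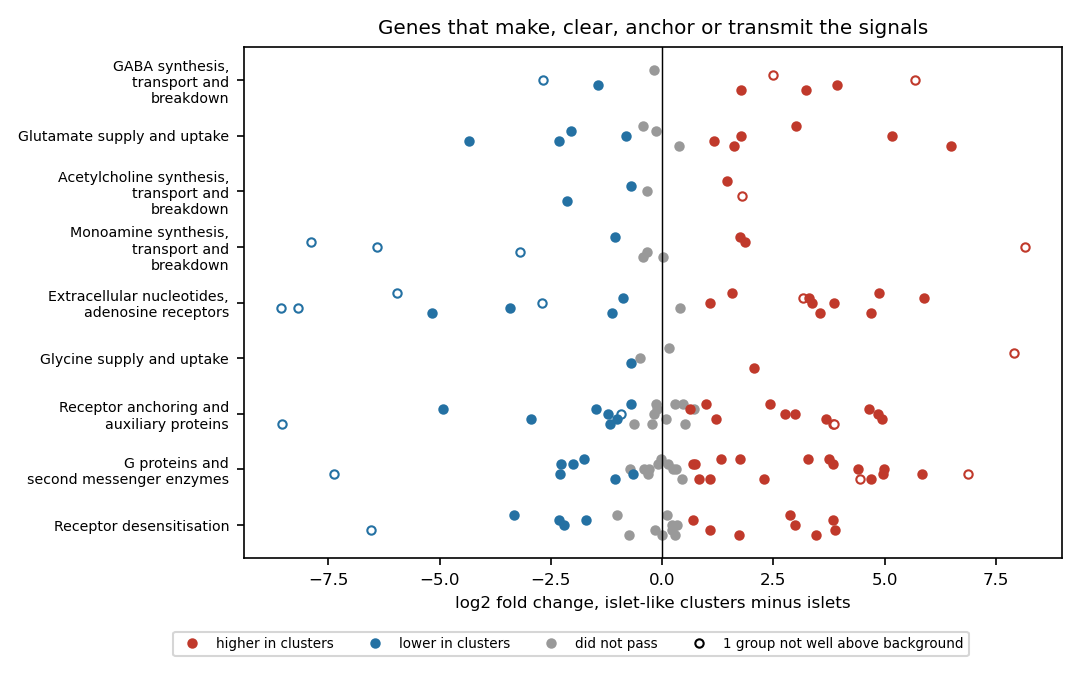
Log2 fold change, clusters minus islets (horizontal axis), of each tested gene of the 9 accompanying lists (rows). Open points were measured in 1 group only. Each list but that for acetylcholine holds genes above 2 on the log2 scale, and each but that for glycine holds genes below -2.

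The plot of the accompanying lists shows called genes on both sides of 0 in every list. Neuronal markers were mixed, 3 of 7 tested higher and 2 lower, with a summed signal of 28.4 and 25.8 in clusters against 17.2 and 18.0 in islets. Of the Schwann cell and glial markers 1 of 6 tested was higher and 2 were lower, with sums of 2.31 and 3.47 in clusters and 1.48 and 1.35 in islets. Stmn2 and Elavl3 among the neuronal markers and Erbb3, Foxd3 and Cdh19 among the glial ones were well above background on no cluster array. On no islet array were 2 of the 9 neuronal and 2 of the 8 glial markers well above background. The part of such cells in the receptor differences was not tested.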

How the data were processed

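RNA of 2 islet-like cluster and 2 islet samples was hybridised to single-colour arrays, 500 ng of total RNA per sample being amplified from an oligo-dT primer and labelled with Cy3, per the labels' protocols. Whether a group's samples came from separate mice is not stated, and p-values then reflect the spread among these samples alone, possibly technical. Linear spot intensity was read from the deposited scanner files, made with Agilent Feature Extraction 11.5.1.1 per the file headers, with background subtracted and a surrogate for spots not above background. Probe positions are on mm9 per the file headers. The authors' value table holds log2 values, correlated with the scanner values of the same array at r = 0.99995 or higher. Its column medians were -3.61 and -3.70 in clusters and -3.50 and -3.37 in islets, so its scale and direction are known and no centring per gene was found. It served as an alternative.

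Control spots and non-uniform spots (the software's flag) were removed before spots of a probe were averaged. The log2 processed signal was scaled to the 75th percentile of each array. Probes flagged well above background in both replicates of the clusters, of the islets or of both were kept (34971 of 55681 probes), and a gene took its kept probe with the highest mean. The comparison used lmFit and eBayes of limma 3.58.1 under R 4.3.3 (2-sided, Benjamini-Hochberg over 24595 genes, 2 residual and 9.06 total degrees of freedom), a step tested on simulated data. A bound is the mean of the bright group against, in the dim group, the mean over arrays of the higher of the array's lowest well-detected signal and the probe's own. All 4 arrays lay on 1 slide. The number of arrays limits the precision.

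The members, lists and tests were chosen with earlier results of these data known. Genes named were, per family, up to 3 called per direction with the greatest change, and 18 given whatever their result, a few of these genes not being reported here; Grin2a, Grin2b, Grin3a, Grin3b, P2rx6, Glra4, Chrm4, Chrnb4 and single genes in short counts were added after their values were seen. Other members are given by counts. The alternatives were normexp background correction (offset 50), other scalings, filters, probe and spot rules, a variance trend with robust fitting, the authors' table, replicate number as a block and leaving out each array. Samples with the same replicate number did not deviate together across genes (correlation of deviations -0.02). With 2 arrays per group, that value cannot show whether the samples were paired, and the main setting took them as unpaired.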

Additional observations from a re-analysis of the deposited data

How the results depend on the processing

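Over 17 alternative settings, of which 1 was chosen after seeing the data (the percentile taken over all spots), the count of receptor genes past the threshold was 37 in the main setting and lay between 18 and 40. It was 18 where probes had to be well above background on all arrays, which left fewer genes to test. Leaving out 1 array gave 25 to 29 receptor genes and, over all genes, 7649 to 10119 in place of 13492, with the remaining array of a group assumed to vary like the other group. Of the 37 called receptor genes 18 kept their call in each alternative that tested them and 19 lost it in at least 1. Of the 18, 9 were tested in all 17 alternatives and 9 in 16, since they were too dim for the filter on all arrays. With the replicate number as a block 28 receptor genes passed, all among the 37. Reversed results were Htr2a with normexp (-0.0015) and P2rx4 with the mean of its probes (1.76). The P2rx4 mean takes in its second probe at 3.91 beside the main probe at -0.38. The cause for Htr2a was not tested. With normexp 24 of the 37 fold changes moved by over 1.5 times, and the difference of each of the 13 called genes that have only a bound was below that bound. The normexp setting adds an offset of 50 to every signal, where the 75th percentile of the arrays lay between 250 and 388. That constant by itself narrows any difference that involves a dim signal. The lower normexp values therefore do not test the size of these 13 differences, which stays known only as a bound. For the named genes the alternatives gave the same call in 574 cases, a lost call in 63 and a new call in 10.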
